A study of Mus musculus with 16 samples.

Results

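Late rise within the knockout is a set of 20 probes, of 25689 regular probes on the array, whose level in Emi2 knockout testis was higher at P30 and P60 than at P21 (postnatal day 21). They were chosen on the authors' log2 values, as means of the 2 arrays of each group. The P30 knockout mean had to lie at least 1 above the P21 knockout mean, the P60 knockout mean at least 1.5 above it, and the P60 knockout mean not above the highest of the 4 wild-type means. RNA came from whole testes of C57BL/6 mice, wild type or Emi2 knockout, aged P15, P21, P30 or P60, with 2 arrays in each of the 8 groups and 16 in all. The growth protocol names p12 as the youngest age where the titles and age labels give P15, and P15 is used here. The labels give no treatment, and they do not say how the knockout allele was made, whether testes were pooled, or whether both arrays of a group represent different animals. P-values therefore reflect array-to-array spread alone, possibly technical.

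Emi2 inhibits the anaphase-promoting complex, whose activity takes cells out of mitosis and through the meiotic divisions. In the young mouse the first wave of spermatogenesis adds cell types in order, from spermatogonia through meiotic spermatocytes to round and then elongating spermatids, so that transcripts of later germ cells appear in the whole testis as the animal ages. In a whole-testis sample fewer cells of a type and less RNA per cell cannot be told apart.

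Members are given by probe identifier, used as a row label, and no gene is named for them. The gene table gave 1 symbol for 16 members and none for 4, but its symbols did not go with the measured levels. Of 68 probes with ribosomal protein symbols, genes active in every cell, 33 (48.5%, exact Clopper-Pearson 95% interval 36.2% to 61.0%) passed detection on both arrays of P60 wild type, against 48.7% of 1154 olfactory receptor symbols and 47.8% of all regular probes. For the same reason the probe that carries the symbol of Emi2, Fbxo43, does not check the genotype labels. Its deposited log2 values overlapped between genotypes at P15 (10.96 to 11.23 in knockout, 10.96 to 11.24 in wild type) and at P21 (9.33 to 9.79 and 9.31 to 9.84). They were lower in knockout at P30 (8.95 to 9.27 against 10.33 to 10.45) and at P60 (9.53 to 9.61 against 10.49 to 10.57).

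Per array 13167 to 14630 regular probes passed a detection p under 0.05, and the 2 arrays of a group correlated at 0.975 to 0.993 across probes. Arrays of a group differed by replicate number, most at P21 for probes that rose early in wild type. Of the 1441 probes whose wild-type mean was at least 1 higher at P21 than at P15, 91.5% were higher on replicate 1 than on replicate 2 of P21 wild type and 84.6% on replicate 1 of P21 knockout. Their median difference was 0.41 in wild type and 0.50 in knockout. On the P30 arrays 31.9% of them were higher on replicate 1 in wild type and 70.2% in knockout, with medians of -0.16 and 0.14. Among the 20 members replicate 1 was the higher P21 array for 19 in wild type and for 11 in knockout. At P30 it was the lower array for 17 in wild type and the higher for 14 in knockout. The members are set against the P21 knockout mean, so the set depends on the P21 knockout arrays. Without P21 knockout replicate 1 the same rule gave 52 probes, 17 of them among the 20, and without P21 knockout replicate 2 it gave 14 probes, 12 of them among the 20.

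Few probes were higher by as much as the rule asked in late knockout testis. The P30 knockout mean was at least 1 above the P21 knockout mean for 140 regular probes (0.545%), 60 of these also had a P60 mean at least 1.5 above it, a limit that 0.397% of all regular probes met, and 20 of the 60 did not pass the highest wild-type mean. The 20 members lay 1.05 to 2.73 above P21 at P30 (median 1.38) and 1.52 to 3.21 above it at P60 (median 1.78). Over all regular probes the medians of both differences were -0.01. These values chose the members and are given as a description.

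At the limit of 1 the nearest members were ILMN_3077377 at 1.05 and ILMN_2788546 at 1.06. The nearest probes outside it that met the other conditions were ILMN_1247753 at 0.41 and ILMN_2766262 at 0.33. At the limit of 1.5 the nearest members were ILMN_3152486 and ILMN_2788546, at 1.52 and 1.53, and the nearest outside were ILMN_1256594 at 1.49 and ILMN_1231230 at 1.46. The limit at P60 thus cut through closely spaced values, whereas the limit at P30 did not. At the wild-type ceiling ILMN_2729513 lay 0.02 and ILMN_3072839 lay 0.22 below the highest wild-type mean. The nearest probes above it, ILMN_2834777 and ILMN_2806291, exceeded the highest wild-type mean, at -0.44 and -0.48 on the same measure.

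Arrays that were not used for a choice gave smaller differences of the same sign for most probes. Chosen by the same rule on the replicate 1 arrays alone, 11 probes, 8 of them among the 20 members, had a median P60 minus P21 knockout difference of 2.43 on those arrays and 1.77 on the replicate 2 arrays. All 11 were higher at P60 than at P21 on the replicate 2 arrays, and 5 met every condition there. Chosen on the replicate 2 arrays alone, 50 probes, 16 of them among the 20 members, had a median difference of 1.72 on those arrays and 0.93 on the replicate 1 arrays, where 47 were higher at P60 and 5 met every condition. The median over all regular probes was -0.01 on either set of held-out arrays. Of all regular probes 48.3% were higher at P60 than at P21 knockout on the replicate 2 arrays and 47.6% on the replicate 1 arrays. The full set of 20 was chosen on all of these arrays, so these values are a description and no test of it.

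On each of the 20 members both P30 knockout arrays and both P60 knockout arrays lay above both P21 knockout arrays. Among all regular probes 18.9% did so at P30 and 20.8% at P60, and the rule itself favours this. All 20 members were detected on both P60 knockout arrays, 17 on both P21 knockout arrays and 10 on both P15 knockout arrays. Most of the knockout difference between P21 and P60 was present by P30, but the rule favours this too. It set a separate limit for the step from P21 to P30, so probes that rose only after P30 were left out. The timing therefore describes the choice and is no separate finding. The P60 knockout mean lay between 0.11 below and 0.99 above the P30 mean, with a median of 0.45 above.

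At P60 the members ended at very different distances from wild type. The distance from the P21 knockout mean up to the highest wild-type mean was closed by 22.6% to 98.9% on the log2 scale, with a median of 69.7%. Both P60 knockout arrays lay below both P60 wild-type arrays for 17 members, as for 21.7% of all regular probes. The highest wild-type mean was at P60 for 17 members, at P30 for 2 and at P15 for 1. The ceiling of the rule favours this direction at P60 without fixing it, and ILMN_2741180 was higher in P60 knockout than in P60 wild type.

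The 5 members that closed less than 50% of the distance ended 2.49 to 5.38 below the highest wild-type mean. ILMN_3152486 read 7.18 and 7.29 on the P21 knockout arrays, 8.13 and 8.50 at P30 and 8.93 and 8.60 at P60. In wild type it read 12.69 and 12.55 at P21 and 13.43 and 13.68 at P60. It was the only member detected on neither P21 knockout array, and its background-corrected signal was at least 5.48-fold higher at P30 and at least 8.80-fold higher at P60 than at P21, where it has only an upper bound. The probe was dark in knockout at the age when wild type was already bright.

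ILMN_1231686 read 7.48 and 7.24 on the P21 knockout arrays, 8.34 and 8.70 at P30 and 9.26 and 9.06 at P60, against 14.39 and 14.33 on the P60 wild-type arrays. ILMN_1252006 read 7.43 and 7.24 at P21, 8.24 and 8.71 at P30 and 8.97 and 8.84 at P60 in knockout, against 14.42 and 14.15 in P60 wild type. These courses nearly coincided, with a root-mean-square difference of 0.12 over the 16 arrays after each probe was centred on its own mean, where the median over 190 pairs of members was 1.28. Each was detected on 1 of the 2 P21 knockout arrays, replicate 1. Their P60 knockout means lay 5.20 and 5.38 below the highest wild-type mean, the largest distances among the members.

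ILMN_3077377 read 7.77 and 7.82 on the P21 knockout arrays, 8.88 and 8.82 at P30 and 9.27 and 9.61 at P60, and 13.43 and 13.41 in P60 wild type. The P21 and P30 knockout arrays of this probe differed little within a group. ILMN_2627386 read 7.54 and 8.56 at P21, 9.80 and 9.08 at P30 and 10.25 and 10.61 at P60 in knockout, and 13.06 and 12.78 in P60 wild type. Here the P21 knockout arrays differed by about as much as the smallest step the rule asked for. In each of these 5 probes the P60 knockout mean was also below the P21 wild-type mean.

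The 10 members that closed 50% to 75% of the distance ended 0.58 to 2.03 below the highest wild-type mean. ILMN_1243507 had the largest difference of all members, with 7.60 and 7.67 on the P21 knockout arrays, 10.09 and 10.64 at P30 and 10.84 and 10.85 at P60. In wild type it read 11.73 and 11.48 at P21, 11.52 and 11.74 at P30 and 12.17 and 12.41 at P60. Wild type was thus near its full level by P21, and the knockout was near its late level by P30. ILMN_2704496 read 9.25 and 9.54 at P21, 11.45 and 10.78 at P30 and 12.26 and 11.95 at P60 in knockout, against 14.17 and 14.09 in P60 wild type. Its P60 knockout mean was 12.10 ± 0.22 (SD, n = 2).

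Another 4 of these 10 members were already well above their P15 level in P21 knockout testis. ILMN_1251129 read 7.46 and 7.39 at P15, 10.60 and 9.74 at P21, 11.62 and 11.47 at P30 and 11.62 and 11.78 at P60 in knockout. ILMN_1247588 read 7.21 and 7.22 at P15, 10.44 and 9.37 at P21, 11.54 and 11.03 at P30 and 11.65 and 11.68 at P60. ILMN_1257998 read 7.11 and 7.20 at P15, 10.37 and 9.26 at P21, 11.39 and 10.85 at P30 and 11.47 and 11.46 at P60. In these 3 probes the step from P15 to P21 was larger than the later step that chose them, and P21 replicate 1 was the higher array by 0.86 to 1.12. ILMN_2603693 followed the same course in knockout, with 7.15 and 6.98 at P15, 9.77 and 8.70 at P21, 10.66 and 10.40 at P30 and 11.05 and 11.22 at P60. ILMN_1215167 read 8.38 and 7.50 at P21, 9.68 and 10.35 at P30 and 11.02 and 9.61 at P60 in knockout, where the P60 arrays differed by more than its P60 distance from wild type.

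The 5 members that closed 75% or more of the distance ended within 0.46 of the highest wild-type mean. ILMN_2729513 read 9.89 and 9.20 at P21, 11.26 and 10.89 at P30 and 11.22 and 11.20 at P60 in knockout, and 11.14 and 11.32 in P60 wild type. Its P60 arrays overlapped between genotypes. ILMN_3072839 read 9.30 and 8.15 at P21, 10.21 and 10.14 at P30 and 10.71 and 10.94 at P60 in knockout, and 8.90 and 8.15 in wild type at P21. It was the only member whose P21 knockout mean was not below the P21 wild-type mean, by 0.20, with overlapping arrays. ILMN_2788546 read 10.36 and 9.54 at P21, 11.05 and 10.97 at P30 and 11.55 and 11.40 at P60 in knockout, and 11.99 and 11.72 in P60 wild type. At P21 the arrays of the genotypes overlapped in this probe too. ILMN_2941280 read 9.14 and 9.02 at P21, 10.50 and 10.00 at P30 and 10.64 and 10.79 at P60 in knockout, and 11.16 and 11.18 in P60 wild type. In ILMN_2642444 the knockout arrays read 7.52 and 7.58 at P21, 9.24 and 9.85 at P30 and 10.24 and 9.16 at P60, and the P60 arrays spanned the lower of the wild-type values of 9.78 and 10.38.

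The remaining 3 of the 10 members did not reach a wild-type rise of 1 from P15 to P21. In wild type ILMN_2738803 read 8.54 and 8.13 at P15 and 9.92 and 8.61 at P21. ILMN_2744710 read 8.63 and 8.23 at P15 and 9.97 and 8.82 at P21 in wild type. In each of these probes both P21 wild-type arrays lay above both P15 wild-type arrays. ILMN_2738803 read 9.49 and 7.99 at P15, 7.62 and 8.47 at P21, 10.60 and 9.92 at P30 and 10.29 and 10.05 at P60 in knockout. ILMN_2744710 read 9.61 and 8.29 at P15, 7.79 and 8.38 at P21, 10.74 and 9.98 at P30 and 10.22 and 10.28 at P60. On the same centred measure this pair had a root-mean-square difference of 0.10, the smallest of the 190, and both were high on the same P15 array, knockout replicate 1. Their P21 knockout means were 0.69 and 0.86 below their P15 means. The P15 and P21 knockout arrays overlapped in both probes, so these means do not show a fall from P15.

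ILMN_2741180 was the only member that was lower in adult than in young wild-type testis. It read 10.06 and 9.98 in wild type at P15, 7.73 and 8.88 at P21, 9.09 and 7.35 at P30 and 8.10 and 7.28 at P60. In knockout it read 9.64 and 10.15 at P15, 7.59 and 7.83 at P21, 9.60 and 7.99 at P30 and 9.51 and 9.37 at P60. Both P60 knockout arrays lay above both P60 wild-type arrays, and the probe met the ceiling only through its P15 wild-type level. Its course in wild type was thus not an onset with age.

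The members were next followed through wild-type development, where the rule favoured a rise without fixing its age. The rule used wild type only through the ceiling, which requires some wild-type group to be at least as high as P60 knockout but does not say at which age. The shares over all tested probes carry no such requirement. On deposited values, 17 of 20 members were at least 1 higher in P21 than in P15 wild type. Of the 40 probes that met both knockout limits but lay above the ceiling, 14 were. From P15 to P21, 17 of 20 members rose in wild type and 0 fell (limma on background-corrected log2 values, adjusted p under 0.05), where 16.3% of 17355 tested probes rose and 25.4% fell. The median log2 change was 5.21 over the members and -0.20 over all tested probes. The 3 that did not pass were ILMN_2738803 (1.28 ± 0.71, SE), ILMN_2744710 (1.31 ± 0.59, SE) and ILMN_2741180 (-2.42 ± 1.02, SE), with limma adjusted p of 0.164, 0.0928 and 0.0712.

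Among the members that rose, 7 were detected on neither P15 wild-type array and were at least 58.0-fold to at least 171-fold higher at P21. The upper value belongs to ILMN_3152486 (limma adjusted p = 2.45e-10) and the lower to ILMN_1252006 (limma adjusted p = 1.52e-09). The smallest change that passed was 2.43 ± 0.44 (SE) for ILMN_3072839 (limma adjusted p = 0.000677). The count of 17 was 7 with background parameters taken from the control rows, a setting that shrank the members' changes at this step. The largest, for ILMN_3152486, was 0.54 there and 8.08 in the main fit. The count stayed 17 on deposited values and without background correction. It was 11 of the 12 members tested when 1 probe per symbol was kept, by symbols that did not go with the measured levels.

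From P21 to P30, 9 members rose in wild type and 0 fell (limma), where 7.49% of tested probes rose and 5.96% fell. The median log2 change was 1.21 over the members and -0.15 over all tested probes. ILMN_1252006 changed most, by 3.04 ± 0.29 (SE; limma adjusted p = 3.96e-06), followed by ILMN_1231686 at 2.93 ± 0.30 (SE; limma adjusted p = 7.93e-06) and ILMN_3072839 at 2.62 ± 0.44 (SE; limma adjusted p = 0.000947). ILMN_3077377 rose by 2.53 ± 0.24 (SE; limma adjusted p = 4.36e-06). The other 5 that rose were ILMN_1215167, ILMN_1251129, ILMN_2704496, ILMN_2729513 and ILMN_2788546, by 1.19 to 2.29. ILMN_1243507 (0.02 ± 0.24, SE) and ILMN_3152486 (0.26 ± 0.26, SE) did not pass, with limma adjusted p of 0.963 and 0.544. Fewer members passed at this step, 5, when P21 wild type replicate 2 was left out, and 6 when P30 wild type replicate 2 was left out.

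From P30 to P60 in wild type, an unadjusted limma p under 0.05 was reached by 1805 of 17355 tested probes and by 3 members. After adjustment 0.0864% of tested probes passed (limma), and 0 members did. The changes ran from -0.88 to 0.75, and the smallest limma adjusted p was 0.389, for ILMN_1243507 (0.68 ± 0.24, SE). A p that misses the threshold does not show that a level stayed the same. The wild-type rises that passed thus lay between P15 and P30.

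The P15 arrays of the knockout were not used by the rule, and P15 wild type only through the ceiling. For the genotype difference at P15, an unadjusted limma p under 0.05 was reached by 297 of 17355 tested probes and by 1 member. After adjustment 0.0115% of tested probes passed (limma), and 0 members were higher or lower in knockout. The differences ran from -0.41 to 0.73 with a median of 0.05, and each had a limma adjusted p of 1. The largest, 0.73 ± 0.32 (SE), was in ILMN_2788546, whose deposited values were 7.63 and 7.53 in knockout and 7.34 and 7.38 in wild type. At this age 10 members were detected on both knockout arrays and 9 on neither.

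The P21 knockout mean was at least 1 above the P15 knockout mean for 8 members, as for 4.24% of all regular probes, and below it for 4. The median difference was 0.60 in knockout and 3.35 in wild type. The P21 knockout arrays entered the rule as the low point, which favours a small or negative value here, so the following tests only describe the choice. The change from P15 to P21 was more negative in knockout than in wild type for 10 members and more positive for 0 (limma, test of the difference), where 2.68% and 0.184% of tested probes passed in these directions. From P21 to P30 it was more positive for 3 members and more negative for 0, where 0.323% and 4.36% passed. At P60 the knockout mean was at least 1 above the P15 knockout mean for 19 members, as for 5.82% of all regular probes, and the exception was ILMN_2741180, at -0.46. For the 9 members detected on neither P15 knockout array the P60 knockout signal was at least 8.70-fold to at least 89.0-fold higher.

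Over the members the P60 knockout means were closest to P30 knockout, with a root-mean-square log2 difference of 0.52, then to P21 wild type at 1.47, P21 knockout at 2.01, P30 wild type at 2.22 and P60 wild type at 2.42. The P60 knockout mean was above the P21 wild-type mean for 11 members and below it for 9, and the differences ran from -3.86 in ILMN_3152486 to 2.29 in ILMN_3072839. Among all regular probes P60 knockout was closest to P30 knockout too, at 0.20, but P21 knockout came next at 0.33, ahead of P21 wild type at 0.41. That the P21 knockout was farther away over the members follows from the rule.

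The members were a small share of the probes with an early wild-type onset. Of the 1441 probes at least 1 higher in P21 than in P15 wild type, 5.61% of all regular probes, 17 were members. Over the 1441 the median P60 minus P21 knockout difference was 0.24, and 117 had a difference of at least 1. Their median P21 minus P15 knockout difference was 1.26, against 0.60 over the members. The 40 probes that met both knockout limits but lay above every wild-type mean had a median P60 minus P21 knockout difference of 3.15, and 14 of them were at least 1 higher in P21 than in P15 wild type. No test of these differences is given, since the rule chose on the same values.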

How the data were processed

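Whole-testis RNA was hybridised to Illumina bead arrays, 16 in all. A deposited table held probe intensities without normalization, and beside them a detection p-value, per the file headers. From the values, the detection column holds 1 minus p in regular probes. The deposited log2 values were recomputed by quantile normalization of the log2 intensities to within 0.00276. They have no centring, and each column's median was 7.39. Limma is listed, with no version, in the submitters' processing notes. A set of 822 rows, taken as control rows by identifier, was left out, which left 25689.

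Members, lists and limits were chosen with earlier results of these data known. Levels are deposited log2 values. For tests, intensities were corrected with normexp (parameters from the detection p-values, offset 16), log2 transformed and quantile normalized. A probe was kept if 2 or more arrays had a detection p under 0.05, which left 17355 and all 20 members. Each stayed its own row because symbols were not used. Limma 3.58.1 in R 4.3.3 fitted 8 group means (8 residual and 5.81 prior degrees of freedom), and p-values were adjusted by Benjamini-Hochberg over all tested probes. A bound sets a group with no detection at the lowest detected signal of each array, or at its own value if higher. The script was tested on simulated data. The number of arrays limits the precision. Probes were named by set rules: the largest knockout differences, the brightest per wild-type class (first step of at least 1), those nearest the limits, the extremes of distance to wild type and the largest wild-type falls. ILMN_2603693 fell outside these rules and was named after its values were seen. The titles' replicate numbers were not used to pair samples in the main fit. Of 28 pairs of groups, 5 had a correlation of replicate deviations over 0.1. The highest, 0.478, was for P21 wild type with P21 knockout, whose arrays thus shared a difference by replicate number.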

Additional observations from a re-analysis of the deposited data

Results flagged for a closer look

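The change from P15 to P21 differed between genotypes for 10 of 20 members in a limma test of the difference itself (knockout minus wild type, adjusted p under 0.05), where 2.68% of tested probes were more negative. The fitted differences were -7.85 for ILMN_3152486 (limma adjusted p = 8.41e-08), -6.18 for ILMN_1252006 (4.37e-07), -5.95 for ILMN_1231686 (7.59e-07) and -5.59 for ILMN_1243507 (3.41e-07). They were -4.72 for ILMN_2627386 (limma adjusted p = 0.000651), -3.76 for ILMN_3077377 (8.48e-06), -3.16 for ILMN_2704496 (0.000333) and -3.04 for ILMN_2642444 (0.00854). The smallest were -2.33 for ILMN_2603693 (limma adjusted p = 0.0185) and -1.86 for ILMN_2941280 (0.0122). Where a probe was not detected at P15 the fitted size depends on the offset and is no bound. The P21 knockout arrays were the low point of the rule, which favours negative values, so these tests are a description.

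From P21 to P30 the difference between genotypes became more positive for 3 members in the same limma test, where 0.323% of tested probes did. It was 4.04 for ILMN_1243507 (limma adjusted p = 5.98e-06), 2.90 for ILMN_2642444 (0.00782) and 2.49 for ILMN_3152486 (0.000502). The rule asked for this knockout step, so the values and their adjusted p describe the choice and lend it no support. The share over all tested probes carries no such choice. For the other 17 the test did not pass. From P30 to P60 0 members and 0 of all tested probes passed (limma). An unadjusted limma p under 0.05 was reached by 1 member and by 1327 of 17355 tested probes.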

How the results depend on the processing

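The number of members was 68 on background-corrected values, 60 without the wild-type ceiling, 49 with both limits at 1 and 4 with both limits at 2. On the replicate 1 arrays alone it was 11, and on the replicate 2 arrays alone 50. Leaving out each array in turn gave 14 to 52. The 20 members were all among the 68, the 60 and the 49. With background parameters from the control rows 7 members rose in wild type from P15 to P21, and 2 passed from P30 to P60. That setting shrank the members' changes at the first step, the largest from 8.08 to 0.54. With 1 probe per symbol, which left 12 members in the test, 11 rose from P15 to P21 and 5 from P21 to P30. Since the symbols did not go with the measured levels, this setting cannot check for several probes per gene. Leaving out each array gave 17 to 18 rising members at the first step, 5 to 11 at the second and 0 passing at the third and at P15. With the replicate block 17 and 9 members rose at the first and second wild-type steps and 0 passed from P30 to P60 or between genotypes at P15, as without it. Of 984 values of single members at the first and second wild-type steps under an alternative, 22 lost the threshold, 23 gained it and 0 called changes turned direction. The differences between genotypes in the change with age were not run under the alternatives. No slide or scan is named in the column headers, so no such block was run. Probes near background are compressed in the deposited values, which limits how small a knockout level at P21 can be told from none.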
